A study of Mus musculus with 16 samples.

Results

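The 10 genes of the cyclic AMP (cAMP) pathway described here act in the control of prophase arrest in the mouse oocyte, some for and some against it. Their transcripts were followed in RNA-seq libraries of oocytes with and without Psma7, a subunit of the 20S proteasome core. The members are Gpr3, Gpr12, Gnas, Adcy3, Adcy9, Pde3a, Prkaca, Prkacb, Prkar1a and Prkar2a. They were matched by gene name, and all 10 were found, each as a single entry, among the 28618 entries and 27987 gene names of the deposited table. The 16 libraries form 4 groups of 4 biological replicates, namely wildtype (WT) germinal vesicle (GV) oocytes, Psma7 cKO GV oocytes, WT metaphase II (MII) eggs and Psma7 cKO MII eggs. Psma7 cKO females were Zp3-Cre; Psma7 flox/flox, and Zp3 drives Cre in growing oocytes, so the gene is lost in the oocyte and not in the cells around it. All females were 3 to 4 weeks old and had received 5 IU PMSG, a gonadotropin that stimulates follicle growth. GV oocytes were taken 44 h later, whereas MII eggs came from oviducts 14 to 16 h after an added injection of hCG, which triggers maturation, and were freed of cumulus cells with 0.3% hyaluronidase. Per the labels each library holds a pool of 5 oocytes, whereas the study's methods give another pool size and call the material embryos. Whether pools of a group came from different females is not stated, so p-values measure the spread between pools.

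In the fully grown oocyte the orphan receptors GPR3 and GPR12 activate the stimulatory G protein encoded by Gnas, adenylyl cyclase then makes cAMP, and cAMP frees the catalytic subunits of protein kinase A (PKA) from the regulatory subunits. Active PKA keeps WEE2 on and CDC25B off, which keeps CDK1 inactive and the germinal vesicle intact. The phosphodiesterase PDE3A breaks cAMP down, cGMP from the follicle cells inhibits PDE3A, and the loss of that cGMP after the luteinizing hormone surge lets meiosis resume. Fully grown oocytes hardly transcribe, so transcript levels after this stage depend on stored mRNA, and the length of the poly(A) tail matters both for translation and for capture by an oligo-dT primer, as was used here.

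Because the libraries were primed on poly(A), the ends of the 3′ UTRs are shown first. In cytoplasmic polyadenylation a U-rich element near the AATAAA signal directs tail lengthening during maturation. TTTTAT and TTTTAAT were searched on the transcript strand in the last 100 bases, and AATAAA in the last 50 bases, of 1 annotated transcript per gene (GENCODE M21, GRCm38). TTTTAAT can share its last bases with AATAAA. The ends of Gpr3 and Prkar1a are shown because their transcripts fell from GV to MII, and those of Adcy3 and Prkacb because they alone held a U-rich element. Capitals mark the matched letters.
Gpr3 3′ end, AATAAA, chr4:133209348-133209377, minus strand: ccaaccctactcAATAAAaaaaaaatggtt
Prkar1a 3′ end, AATAAA, chr11:109669615-109669644, plus strand: ggtaggtcacagAATAAAaaagatgaaata
Adcy3 3′ end, TTTTAT, chr12:4213496-4213525, plus strand: ctgTTTTATtaaaagctttactcaacttga
Prkacb 3′ end, TTTTAAT, chr3:146729593-146729622, minus strand: TTTTAATtcatcaataaccgcaaaattaaa
All 4 stretches lie in the last exon. AATAAA was present in 5 of 10 members (Gpr3, Gnas, Prkaca, Prkar1a and Prkar2a) and a U-rich element in 2 of 10, with 0 members holding both. The variant signal ATTAAA was not searched, and it can be read in the stretches of Adcy3 and Prkacb above. These counts therefore do not show that a U-rich element lacked a signal near it. Among 8298 other genes 64.9% held AATAAA, 20.6% a U-rich element and 13.8% both. The window of Pde3a held neither. These are matches of letters, and the annotated end need not be the one used in oocytes.

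The checks of the libraries were as follows. Psma7 was at 142.0 to 200.6 FPKM (fragments per kilobase, per 1 M mapped fragments) in WT GV oocytes and at 11.1 to 17.98 FPKM in Psma7 cKO GV oocytes. In eggs it was at 97.7 to 172.1 FPKM in WT and at 13.6, 50.3, 35.0 and 59.9 FPKM in Psma7 cKO replicates 1 to 4. Psma7 cKO egg replicates 2 to 4 thus lay above every Psma7 cKO GV library. From GV to MII in Psma7 cKO, Psma7 was called higher by limma (log2 fold change 1.27). The source of these fragments was not tested, which bears on every comparison with mutant eggs. All 8 oocyte markers had a mean of at least 1 FPKM in every group, and their summed level was 13700 to 14400 FPKM in GV oocytes and 5600 to 8590 FPKM in eggs. Of 13 cumulus and granulosa markers 2 reached 1 FPKM, with a summed level of 12.3 to 21.1 FPKM over the libraries. Each FPKM resolved into a whole number of fragments, and the library totals behind the values were 10.5 to 15.7 M fragments. FPKM is a share of a library, so fewer transcripts of a gene per oocyte and more of all the others cannot be told apart.

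The receptor Gpr3 and the regulatory subunit Prkar1a were the most abundant members in GV oocytes of either genotype, and Pde3a had the highest mean in eggs. In WT GV oocytes Prkar1a averaged 32.8 ± 5.96 FPKM (SD, n = 4), Gpr3 24.2 ± 4.95, Pde3a 12.5 ± 1.11, Gnas 10.1 ± 0.824, Prkar2a 9.18 ± 0.955 and Prkaca 8.40 ± 1.18. Adcy9 and Prkacb followed at 2.09 ± 0.106 and 1.98 ± 0.485 FPKM. The ranges of Prkar1a and Gpr3 overlapped, as did those of Gnas and Prkar2a, of Prkar2a and Prkaca, and of Adcy9 and Prkacb. Within every WT GV library, though, Prkar1a was above Gpr3 and Gnas above Prkar2a. The order of the other overlapping neighbours varied between libraries. In WT eggs Pde3a, at 22.7 ± 1.41 FPKM, stood above every library of the next gene, Prkar1a, at 14.6 ± 1.08. Prkar1a, Gpr3, Prkar2a and Gnas then formed a run in which each gene overlapped the next. In Psma7 cKO eggs Pde3a (18.4 ± 1.35 FPKM) and Prkar1a (17.3 ± 1.42) overlapped.

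**Figure D1:**
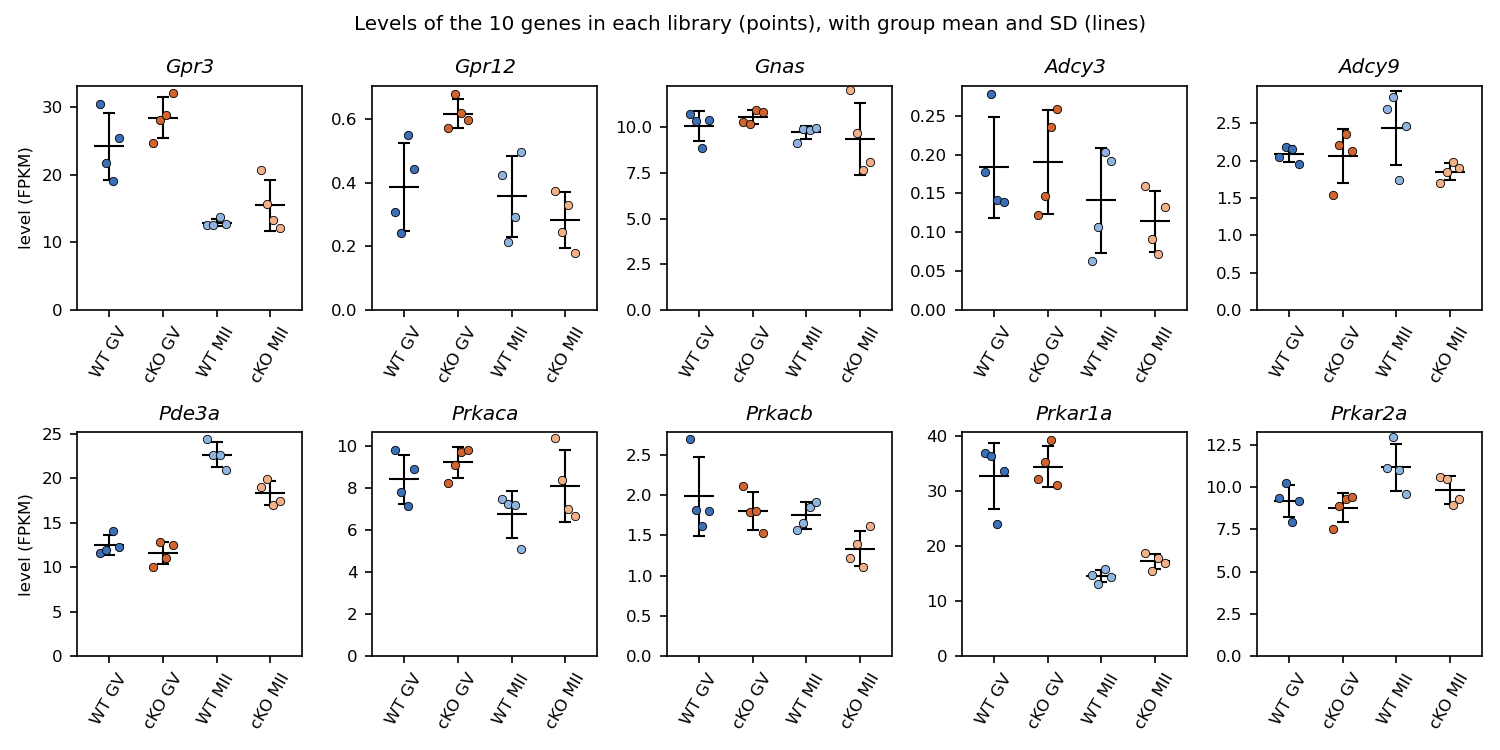
Level in FPKM (vertical axis, linear, from 0) of each of the 10 genes in the 4 groups; points are libraries, and lines give the group mean and SD (n = 4). Gpr3 and Prkar1a are lower and Pde3a is higher in every egg library than in every GV library of the same genotype, while Gpr12 and Adcy3 stay below 1 FPKM throughout.

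The order of genes by level depends on the length that fragments were divided by. The table's values correspond to a length of 11076 bases for Gnas, a locus with 24 annotated transcripts from several promoters, against 3903 bases for the annotated transcript used here. With the shorter length Gnas came to 28.7 FPKM in WT GV oocytes, next below Prkar1a at 40.1, and to 27.6 FPKM in WT eggs, above Pde3a at 25.3. The order changed in all 4 groups with transcript lengths, and 5 to 7 of 10 members kept their rank. Comparisons of a gene with itself between groups are not touched by the length.

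**Figure D2:**
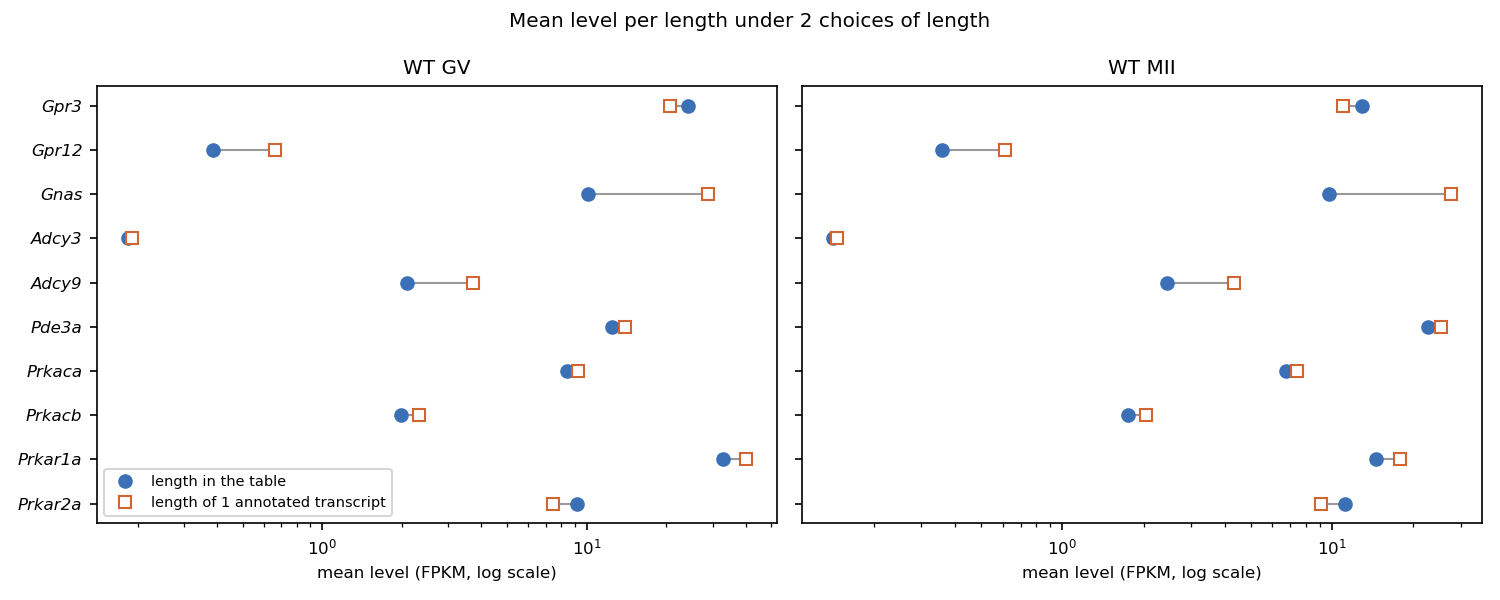
Mean level in FPKM (log axis) of each gene in WT GV oocytes and WT MII eggs, with the length implied by the table (circles) or the length of 1 annotated transcript (squares). Gnas moves from 10.1 to 28.7 FPKM in GV oocytes, and the level of Adcy3 hardly moves.

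The members Gpr12 and Adcy3 were barely detected. Gpr12 encodes the second receptor and lay between 0.179 and 0.680 FPKM, which rests on 9 to 38 fragments in a library. Adcy3, a cyclase implicated in keeping rodent oocytes arrested, lay between 0.0630 and 0.278 FPKM, from 4 to 20 fragments. Both had means under 1 FPKM and were not tested, so 8 of 10 members entered each comparison. In GV oocytes Gpr12 was at 0.308, 0.243, 0.551 and 0.443 FPKM in the WT libraries and at 0.574, 0.680, 0.619 and 0.597 in the Psma7 cKO libraries. Every Psma7 cKO value was above every WT value, at medians of 18.5 and 32.5 fragments in WT and Psma7 cKO. Among all entries tested, which had a mean of at least 1 FPKM, 4.25% were separated in this direction. In eggs the genotypes overlapped, at Gpr12 means of 0.357 FPKM in WT and 0.283 in Psma7 cKO. From GV to MII its Psma7 cKO libraries were separated as lower, beside 47.2% of entries tested, and its WT libraries overlapped. No share was taken over entries as low as Gpr12. Gpr3 made up 98.3% ± 0.835 (SD, n = 4) of the summed FPKM of Gpr3, Gpr12 and Gpr6 in WT GV oocytes and 97.3% ± 0.979 in WT eggs.

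The comparison of genotypes in GV oocytes asks whether loss of Psma7 alters these transcripts before maturation. By limma with Benjamini-Hochberg adjustment over all entries, 0 of 8 members passed an adjusted p of 0.05, and 0 had an unadjusted p under 0.05. Of all 11062 entries tested 0.118% passed, and 10.7% had an unadjusted p under 0.05. limma voom on the whole fragments also called 0 members, and 0.163% of all entries. Gpr3, the receptor whose activity sustains the arrest, was at 30.4, 21.7, 19.0 and 25.5 FPKM in WT and at 24.7, 28.1, 28.8 and 32.1 FPKM in Psma7 cKO. The groups overlapped, and the log2 fold change was 0.25 (SE 0.15, adjusted p = 0.593 by limma), with a 95% interval of -0.07 to 0.57. Pde3a was at 11.6, 12.0, 14.1 and 12.3 FPKM in WT and at 10.1, 12.8, 11.0 and 12.5 in Psma7 cKO. Its log2 fold change was -0.11, with an interval of -0.37 to 0.15. For Prkar1a the interval was -0.23 to 0.40, for Gnas -0.16 to 0.30 and for Prkaca -0.15 to 0.43. The widest of the 8 was that of Prkacb, from -0.53 to 0.30.

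From GV to MII in WT, 3 of 8 members changed, where 78.5% of all 10475 entries tested changed (26.1% higher, 52.4% lower). Gpr3 and Prkar1a fell and Pde3a rose. Gpr3 went from the GV values above to 12.6, 12.6, 13.7 and 12.7 FPKM in the 4 egg libraries. Every egg library was below every GV library, as was so for 48.7% of all entries, and the log2 fold change was -0.88 (SE 0.14, adjusted p = 0.000124 by limma). Prkar1a encodes the type I regulatory subunit RIα, which binds and silences the catalytic subunits. It was at 36.9, 36.4, 24.1 and 33.6 FPKM in WT GV oocytes and at 14.8, 13.2, 15.8 and 14.4 in WT eggs. The groups did not overlap, and the log2 fold change was -1.15 (SE 0.14, adjusted p = 1.66e-05 by limma). Pde3a, the enzyme that removes cAMP, was at 24.4, 22.6, 22.7 and 21.0 FPKM in WT eggs. All 4 egg libraries were above all 4 GV libraries, as for 23.9% of all entries, with a log2 fold change of 0.86 (SE 0.096, adjusted p = 9.52e-06 by limma). The other 5 members had log2 fold changes between -0.32 (Prkaca) and 0.28 (Prkar2a), which did not pass; limma voom also called Prkar2a (adjusted p = 0.0473).

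The 3 changes were found again in Psma7 cKO from GV to MII, where 4 of 8 members passed, as did 74.0% of all 10748 entries (23.0% higher, 51.0% lower). Gpr3 fell to 20.7, 15.7, 13.2 and 12.2 FPKM, with a log2 fold change of -0.90 (SE 0.17, adjusted p = 0.000926 by limma). Prkar1a went from 32.2, 35.3, 39.4 and 31.1 FPKM to 18.8, 15.5, 17.9 and 16.9, a log2 fold change of -0.995 (SE 0.11). Pde3a rose to 19.0, 19.9, 17.0 and 17.5 FPKM, a log2 fold change of 0.67 (SE 0.11). For each of these genes the GV and egg libraries did not overlap, where 47.2% of all entries were separated as lower and 21.4% as higher. Prkacb, a catalytic subunit, was the fourth, at 2.11, 1.79, 1.80 and 1.53 FPKM in GV oocytes and 1.22, 1.39, 1.11 and 1.62 in eggs. Its libraries overlapped, its log2 fold change was -0.44 (SE 0.15, adjusted p = 0.0243 by limma), and its values rest on 76 to 143 fragments in a library. The call was lost without GV replicate 1 or without egg replicate 1 or 3 (adjusted p = 0.0600, 0.0602 and 0.0689 by limma) and after rescaling (-0.042, adjusted p = 0.837).

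Transcripts as a whole shifted between stages, which bears on every member. The median log2 fold change of all entries tested was -0.44 in WT and -0.42 in Psma7 cKO, and rescaling the libraries by the median ratio brought it to 0.04 and -0.02. Relative to that median, after rescaling, Gpr3 still fell in WT by 0.42 (adjusted p = 0.00762 by limma) and Prkar1a by 0.69, and Pde3a rose by 1.32. Under the same rescaling 6 of 8 members passed in WT, with Gnas (0.41), Adcy9 (0.66) and Prkar2a (0.74) added as higher, whereas Gnas had a log2 fold change of -0.05 on the deposited values. The split of all entries moved from 2738 higher and 5486 lower to 4223 higher and 4167 lower. The fall of Gpr3 and Prkar1a and the rise of Pde3a kept their direction and passed in both genotypes under every alternative limma fit run, although all 3 stayed under 3-fold.

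**Figure D3:**
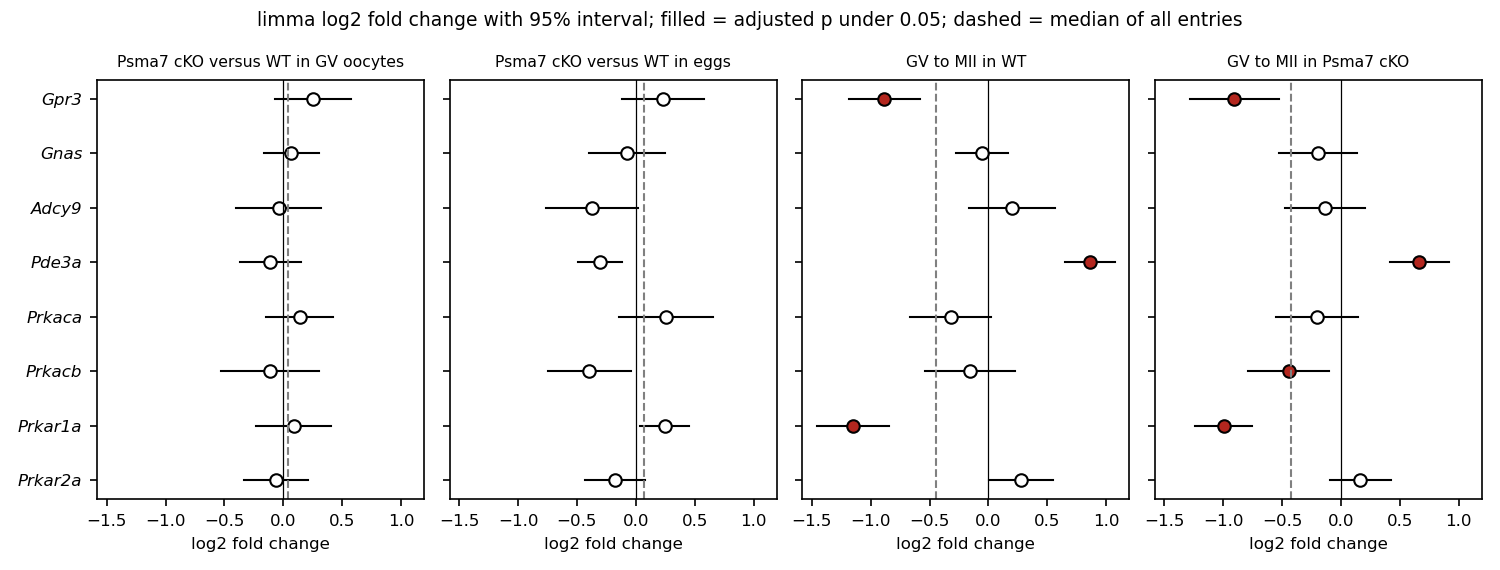
limma log2 fold change (horizontal axis) of the 8 tested genes in 4 comparisons, with 95% intervals; filled circles passed an adjusted p of 0.05, and the dashed line is the median of all entries tested. Gpr3 and Prkar1a lie left of the dashed line and Pde3a right of 0 in both maturation panels, and no circle is filled in either genotype panel.

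In eggs 0 of 8 members passed between genotypes, where 8.02% of 9492 entries passed (6.53% with more and 1.49% with less in the mutant). The paper reports that some ovulated Psma7 cKO oocytes stayed at the GV stage or were arrested in meiosis I. Whether the pools labelled MII held such cells is not stated. Genotype and the stage reached therefore cannot be told apart in comparisons that use mutant eggs. At an unadjusted p under 0.05 there were 3 of 8 members, beside 29.4% of all entries. limma voom called 1 member, Pde3a, and 9.16% of all entries. The egg values of Pde3a given above did not overlap, with all 4 Psma7 cKO libraries under all 4 WT libraries, as was so for 7.06% of all entries in this direction. Its log2 fold change was -0.31 (SE 0.083, adjusted p = 0.0547 by limma), and the 95% interval ran from -0.49 to -0.12. The adjusted p was 0.0374 by limma voom, 0.0402 after rescaling and 0.0419 without Psma7 cKO egg replicate 2, and it ranged up to 0.189 over the alternatives run. Prkar1a, at a log2 fold change of 0.24 (SE 0.092, adjusted p = 0.119 by limma), and Prkacb, at -0.40 (SE 0.16, adjusted p = 0.131 by limma), did not pass. Adcy9, at 2.69, 2.85, 1.74 and 2.47 FPKM in WT and 1.70, 1.84, 1.98 and 1.89 in Psma7 cKO, overlapped because of a single low WT library.

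The Psma7 cKO egg libraries differed among themselves. Replicate 1 was the highest of the 4 for 7 of 10 members, and replicate 3 the lowest for 5 of 10. Over all 9492 entries replicate 1 was the highest for 33.8%, and replicate 3 was the lowest for 20.6% and the highest for 34.1%. The summed level of 397 transcripts that fell more than 10-fold in WT stood at 12.7%, 8.80%, 34.5% and 19.1% of its GV mean in replicates 1 to 4, against 5.93% to 6.80% in WT eggs, and its part in the members' values was not tested. Gnas showed the spread of these libraries, at 12.0, 9.69, 7.67 and 8.13 FPKM, against 9.17, 9.89, 9.87 and 9.98 in WT eggs.

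Whether maturation changed a member differently in the 2 genotypes was tested by the interaction over all 16 libraries. It passed for 0 of 8 members and for 1.26% of all 10615 entries. At an unadjusted p under 0.05 there were 0 members, beside 17.7% of all entries, and limma voom called 0 members and 1.76% of all entries. For Pde3a the interaction was -0.19 (95% interval -0.49 to 0.10), for Adcy9 -0.33 (-0.81 to 0.14) and for Gpr3 -0.02 (-0.50 to 0.46), so the rise of Pde3a was not shown to differ between genotypes. With the fold and the floor that the study names, applied here to group means (a difference of over 3-fold after values below 1 FPKM were set to 1), 0 of 10 members passed in any of the 4 comparisons. Whether the study compared group means is not stated, so its lists need not be those taken here. The rule took 0.0245% and 0.591% of all entries between genotypes in GV oocytes and eggs, and 8.48% and 6.76% from GV to MII in WT and Psma7 cKO.

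The makeup of the PKA regulatory subunits shifted with maturation. Prkar1a made up 61.6% ± 3.76 (SD, n = 4) of the summed FPKM of Prkar1a, Prkar1b, Prkar2a and Prkar2b in WT GV oocytes and 33.4% ± 1.98 in WT eggs. In Psma7 cKO the shares were 65.1% ± 2.46 and 38.3% ± 3.96. Prkar2b, a type II regulatory subunit that anchoring proteins bind, took 21.0% ± 3.06 in WT GV oocytes and 41.0% ± 1.29 in WT eggs, and its own level rose (log2 fold change 0.71, adjusted p = 2.17e-05 by limma). The ratio of Prkar1a to Prkar2a went from 3.55 ± 0.385 to 1.33 ± 0.215 in WT and from 3.95 ± 0.455 to 1.77 ± 0.217 in Psma7 cKO. The summed regulatory subunits over Prkaca plus Prkacb stood at 5.14 ± 0.628 in WT GV oocytes and 5.19 ± 0.550 in WT eggs. In Psma7 cKO the values were 4.80 ± 0.2715 and 4.89 ± 0.677. Prkx was left out of this ratio. It held 21.25% of the sum of Prkaca, Prkacb and Prkx in WT GV oocytes and 17.6% in WT eggs. With transcript lengths, chosen after seeing the data, the share of Prkar1a was 67.8% and 39.4% in the same WT groups. These ratios do not depend on library scaling.

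**Figure D4:**
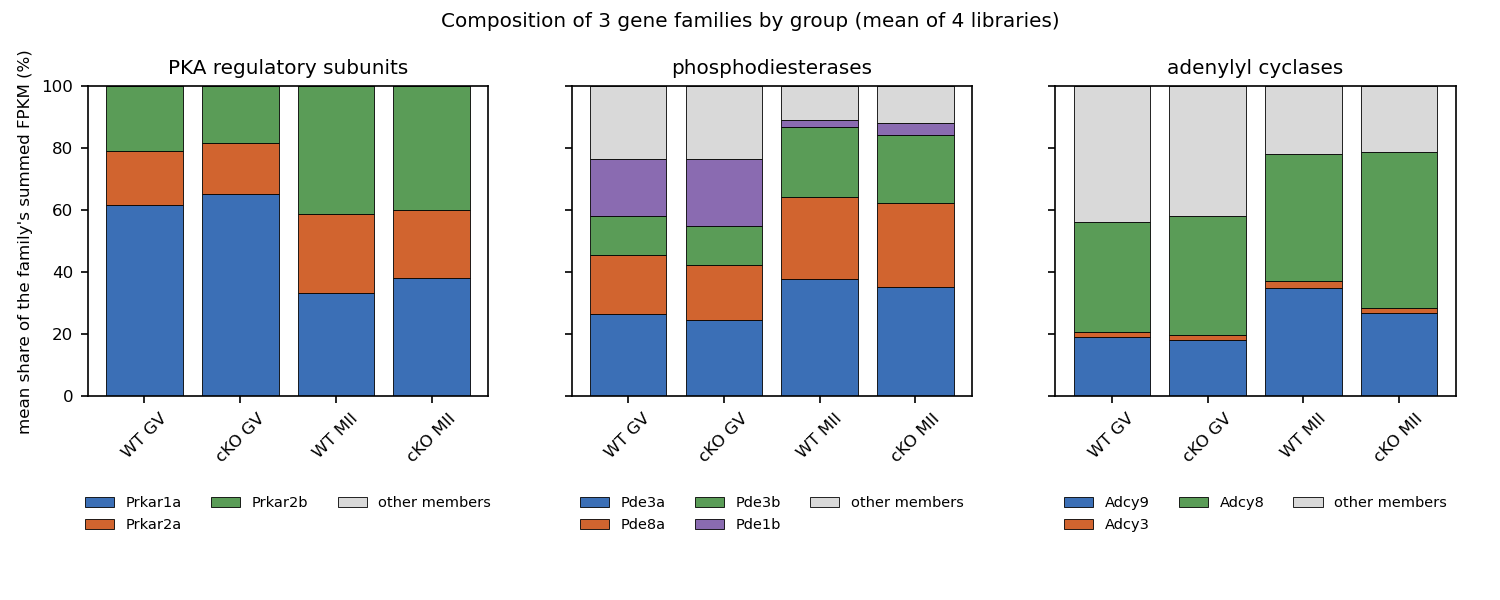
Mean share (percent, n = 4 libraries) of the summed FPKM of the PKA regulatory subunits, the phosphodiesterases and the adenylyl cyclases taken by named genes in each group. The share of Prkar1a is 61.6% in WT GV oocytes and 33.4% in WT eggs, that of Pde3a 26.7% and 37.8%, and that of Adcy9 19.0% and 35.0%. The level of Adcy9 itself was 2.09 and 2.44 FPKM and did not pass on the deposited values. The summed level of the cyclases was 11.1 FPKM in WT GV oocytes and 6.985 FPKM in WT eggs.

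Pde3a had the highest mean of 17 phosphodiesterases in every group, though in Psma7 cKO GV oocytes Pde1b, at 8.11 to 13.1 FPKM, overlapped it. Pde3a held 26.7% ± 3.64 (SD, n = 4) of the summed FPKM in WT GV oocytes and 37.8% ± 1.19 in WT eggs. In Psma7 cKO it held 24.5% ± 2.27 and 35.4% ± 1.74. Of the other phosphodiesterases Pde8a had the highest mean in WT GV oocytes with the table's lengths, 8.87 ± 0.506 FPKM, but overlapped Pde1b at 8.66 ± 2.42. With transcript lengths Pde1b (16.6% of the family) and Pde3b (13.2%) stood above Pde8a (10.6%). Pde3a over Gpr3, a sink of cAMP over a receptor that drives its synthesis, was 1.94, 1.79, 1.65 and 1.66 for WT eggs. For mutant eggs it was 0.921, 1.27, 1.28 and 1.44. The 2 groups of eggs did not overlap, but the ratio of this picked pair was not tested, and no share over other pairs was taken. Gpr3 itself overlapped between the eggs, at 12.6 to 13.7 FPKM in WT and 12.2 to 20.7 in Psma7 cKO. The lowest ratio, 0.921, came from the library with the highest Gpr3. In GV oocytes the ratio was 0.540 ± 0.152 in WT and 0.409 ± 0.0332 in Psma7 cKO, with overlapping libraries. Among the cyclases Adcy8, a calcium-stimulated form, had the highest mean with the table's lengths (3.91 ± 0.343 FPKM in WT GV oocytes). There its libraries, at 3.655 to 4.405 FPKM, overlapped those of Adcy5, at 1.85 to 3.673. With transcript lengths Adcy9 led in WT GV oocytes, at 34.2% of the family against 26.0% for Adcy8. Adcy3 held 1.64% ± 0.476 of the family in WT GV oocytes.

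Of 70 further pathway genes 68 were in the table. In GV oocytes 36 were tested between genotypes and 0 passed. In eggs 29 were tested, of which 2 were higher and 2 lower in Psma7 cKO, where 6.53% of all entries were higher and 1.49% lower. Gja4, the gap junction protein that carries cGMP into the oocyte, had 30.4 ± 3.30 FPKM in WT and 64.6 ± 22.9 FPKM in mutant eggs (log2 fold change 1.03, adjusted p = 0.0309 by limma). Gja4 is among the 397 transcripts that fell more than 10-fold in WT. Their sum stood at 8.80% to 34.5% of its GV mean in mutant eggs and 5.93% to 6.80% in WT eggs. Whether Gja4 differed beyond these transcripts was not tested. Pkig, an inhibitor of the PKA catalytic subunit, was at 11.3 ± 1.21 and 16.8 ± 1.96 FPKM (0.57, adjusted p = 0.0315 by limma). Akap1, which anchors PKA at mitochondria, was lower, at 29.2 ± 2.28 and 22.4 ± 1.499 FPKM (-0.38, adjusted p = 0.0359 by limma), as was Gnai3, an inhibitory G protein subunit (-0.26, adjusted p = 0.0458 by limma). All 4 also passed after rescaling. The interaction passed for 0 of 35 on the deposited values and for 1 of 35, Gja4 (0.95, adjusted p = 0.0289 by limma), after rescaling.

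From GV to MII in WT, 14 of the 36 tested pathway genes rose and 17 fell, and in Psma7 cKO 12 rose and 15 fell. Of all entries 26.1% rose and 52.4% fell in WT. The median log2 fold change of the 36 was -0.09 in WT, beside -0.44 over all entries. On the floored scale Gja4 had the lowest log2 fold change, from 415.2 ± 51.4 to 30.4 ± 3.30 FPKM in WT (log2 fold change -3.77), followed by the calcium-dependent phosphodiesterase Pde1b (-2.55) and the phosphatase Cdc25b that activates CDK1 (-2.05). The floor of 1 FPKM limits the fall of low genes in this order, such as Rapgef3 (2.23 FPKM in WT GV oocytes and 0.0554 in WT eggs) and Impdh2 (3.91 and 0.122). Gnb1, a G protein beta subunit, rose most (1.21), followed by Pde3b (1.19) and by Rgs2, a regulator of G protein signalling, which went from 270.1 ± 29.3 to 581.9 ± 8.15 FPKM (1.11). Receptor coupling genes rose in 5 of 6 cases tested, and 0 fell. The other cyclases fell in 3 of 3, the PKA targets and cAMP effectors in 3 of 4 and the genes of cGMP supply in 3 of 3. Of the other phosphodiesterases 3 rose and 4 fell, and of the anchoring proteins 5 rose, Akap12 (0.45) among them, and 2 fell. Wee2, the kinase that PKA turns on, was at 306.0 ± 14.2 FPKM in WT GV oocytes and 240.8 ± 14.5 in WT eggs, a log2 fold change of -0.35 that became 0.12 and did not pass after rescaling. With rescaled libraries 18 of 34 pathway genes rose and 10 fell in WT, the receptor coupling genes rose in 6 of 6, and the falls among the other cyclases came to 1 of 2, among the PKA targets and effectors to 1 of 3 and in cGMP supply to 2 of 3. Gja4, Pde1b, Cdc25b, Gnb1, Pde3b and Rgs2 kept their direction and call.

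The genes with profiles nearest to Gpr3 over the 16 libraries, by mean absolute difference of centred log2 FPKM among 6337 entries with a mean of at least 5 FPKM, were Gm8801 (0.088), Eif4enif1 (0.094) and Wdr5 (0.096). Nearest to Pde3a were Dcbld2 (0.056), Ahctf1 (0.061) and Mllt4 (0.066). Adcy3 lay under the floor of 1 FPKM in every library, so its nearest entries, Ralgapb, Stx17 and Myo5b, are entries whose level varied little.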

How the data were processed

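The authors made Smart-seq2 libraries with oligo-dT priming and deposited FPKM per gene. TopHat2 2.1.1, Cufflinks 2.2.1 and mm10 are named in the submitters' processing notes; the gene annotation is not given in the sources used here. Every deposited FPKM resolved, within 0.001 fragments, into whole fragments at 1 length per entry and 1 total per library (28618 of 28618 entries). Lengths up to 200000 bases were tried and the smallest that fitted was kept, so entries with fragments in few libraries could hardly fail. The 10615 entries with a mean of at least 1 FPKM were all among those that resolved into whole fragments. These fragments were used for depth, and in a limma voom fit chosen after seeing the data. The study's methods name an ERCC spike-in mix. The deposited values hold 0 ERCC entries, so spike-ins could not be analysed here.

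Values below 1 FPKM were set to 1 and log2 values fitted with limma 3.58.1 in R 4.3.3 (eBayes with trend) over entries with a mean of at least 1 FPKM, each comparison on its own 8 libraries and the interaction on 16. Benjamini-Hochberg adjustment covered all entries, at 0.05. Fold changes are on this floored scale. Alternatives were other floors, filters and scalings, summed names, a replicate block, 1 fit of all 16 libraries, each library left out, and other lengths. The fits were tested on simulated data. Python 3.11.15 was used elsewhere.

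The members and gene lists were chosen with earlier results of these data known. Of the other pathway genes, those named have the smallest adjusted p between genotypes, the 3 largest rises and falls in WT maturation, and the highest level of each list in WT GV oocytes; Prkar2b, Pde3b, Rapgef3, Impdh2 and others named in family shares or beside the floor were added after their values were seen.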

Additional observations from a re-analysis of the deposited data

Results flagged for a closer look

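In 3 of 40 groups of 4 libraries (10 genes in 4 groups) a single library stood apart from the other 3 by more than Dixon's 95% critical value, where chance gives about 1 in 20. All 3 were WT MII eggs. Gpr3 was at 13.7 FPKM in replicate 3, above the other libraries. Gnas was at 9.17 FPKM in replicate 1, below the others. Prkaca was at 5.09 FPKM in replicate 4, below the others.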

How the results depend on the processing

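Gpr3, Prkar1a and Pde3a kept their direction and their call from GV to MII in both genotypes under all alternative limma fits run. Between genotypes in eggs 1 member, Pde3a, passed in place of 0 with a mean of at least 5 FPKM, after rescaling, with limma voom, with all 16 libraries in 1 fit and without Psma7 cKO egg replicate 2. From GV to MII in WT 6 members passed after rescaling, in place of 3. By the rule on group means 1 member, Prkar1a, passed at 2-fold, in place of 0 at 3-fold. The order of member levels was kept in 4 of 4 groups after rescaling and in 0 of 4 with transcript lengths. Rescaling reversed the sign of Gnas (0.41), Prkaca (0.14) and Prkacb (0.31) in WT and of Gnas (0.21), Adcy9 (0.27) and Prkaca (0.20) in Psma7 cKO from GV to MII, by construction of the scale. Between genotypes in eggs it moved the split of all entries from 620 higher and 141 lower to 501 and 332.

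With each library left out in turn, the members called ranged from 0 to 1 in eggs, from 3 to 4 in WT maturation, from 3 to 5 in Psma7 cKO maturation, and stayed at 0 in GV oocytes and in the interaction. Uncalled log2 values that changed sign ranged in GV oocytes from -0.20 to 0.045 (Prkacb), -0.053 to 0.15 (Prkar1a), -0.11 to 0.094 (Adcy9) and -0.13 to 0.0099 (Prkar2a), in eggs from -0.20 to 0.015 (Gnas), and in the interaction from -0.17 to 0.088 (Gpr3) and -0.014 to 0.20 (Prkaca). Same-numbered libraries correlated at -0.50 to 0.29 in their deviations over 10615 entries, so the numbers were not taken as pairs. With the replicate block 3 members passed in Psma7 cKO maturation in place of 4, Prkacb being lost (adjusted p = 0.0649 by limma, and 0.0509 to 0.163 with the lower floor or no filter), and the other counts of members were 0, 0, 3 and 0. Over all entries the block left 101 higher and 7 lower in eggs, in place of 620 and 141. Without a filter the counts of members were 0, 0, 3, 3 and 0. Depth limits Gpr12 and Adcy3, which rest on at most 38 and 20 fragments.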
